A study of Homo sapiens with 12 samples.

Results

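The 9 genes described here were selected on measured values of the same HCC95 libraries that are described below: a large rise with wild-type KLF5 over the empty vector, or a large deficit of KLF5 E419Q against wild-type KLF5. They are SUSD2, MPPED1, SORCS2, MFAP5, LOXL4, IGFL1, GHR, EDAR and GPRC5A, 9 of the 57820 genes listed in each file. No numeric cutoff was part of the choice. Values in HCC95 are therefore given as a description, without a test, and tests of the members were made in BICR31, whose libraries the choice did not use.

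RNA-seq of poly(A) RNA covered 12 libraries of 2 established human squamous carcinoma lines. BICR31, a line of head and neck squamous carcinoma, received siKLF5, a small interfering RNA that silences KLF5 (3 libraries), or siNC, a negative control RNA (3 libraries). HCC95, from a lung squamous cell carcinoma, overexpressed KLF5 E419Q, a missense form, or KLF5 WT, or carried the empty vector (2 libraries each). The sources used here do not give the vector, the siRNA sequences, the harvest time, or whether the HCC95 lines were clones or pools. Nothing states that replicate libraries were separate cultures, so each p-value measures spread between libraries that may be only technical. Libraries held 3074139 and 3364760 counts with E419Q, 3516984 and 3992553 with WT, and 3455397 and 4643792 with the empty vector. BICR31 libraries held about 2150775 to 2296191 counts with siKLF5 and 1922358 to 1934364 with siNC.

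KLF5 is a zinc-finger transcription factor of epithelia, abundant in proliferating basal cells, and binds GC-rich and CACCC-type DNA. The residue changed in E419Q lies in its DNA-binding zinc fingers. The members are not 1 pathway: MFAP5 and LOXL4 encode matrix proteins, IGFL1 a secreted ligand, and GHR, EDAR, SORCS2, GPRC5A and SUSD2 cell-surface proteins, while MPPED1 encodes a protein with a metallophosphoesterase domain.

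To show the DNA in front of these genes, the 250 bases before each RefSeq transcription start (build GRCh38.p14) were searched on both strands for CACCC and for the GC box CCCGCCC, each counted separately. The table used holds 4 of the 9 members, with 11 windows: LOXL4 and IGFL1 with 1 start each, MPPED1 with 2 and GHR with 7. SUSD2, SORCS2, MFAP5, EDAR and GPRC5A have no entry. The windows of LOXL4 (chr10:98268195-98268444, minus strand), IGFL1 (chr19:46229492-46229741, plus strand) and the first start of MPPED1 (chr22:43411764-43412013, plus strand) are shown because these genes carry the contrast described below: LOXL4 and IGFL1 were far lower with E419Q than with WT, and MPPED1 was not. Each runs 5′ to 3′ on the gene's strand, with CACCC and CCCGCCC or their reverse complements in capitals.
LOXL4: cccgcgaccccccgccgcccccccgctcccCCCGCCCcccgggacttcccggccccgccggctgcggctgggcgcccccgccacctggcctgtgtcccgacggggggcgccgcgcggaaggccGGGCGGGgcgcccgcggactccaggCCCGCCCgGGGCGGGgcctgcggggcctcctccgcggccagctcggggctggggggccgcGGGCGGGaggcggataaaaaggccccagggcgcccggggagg
IGFL1: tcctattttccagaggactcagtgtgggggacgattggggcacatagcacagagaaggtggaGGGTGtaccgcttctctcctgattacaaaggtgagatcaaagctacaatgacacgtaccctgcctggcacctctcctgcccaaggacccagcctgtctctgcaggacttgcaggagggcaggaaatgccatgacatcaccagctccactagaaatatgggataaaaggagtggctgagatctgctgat
MPPED1: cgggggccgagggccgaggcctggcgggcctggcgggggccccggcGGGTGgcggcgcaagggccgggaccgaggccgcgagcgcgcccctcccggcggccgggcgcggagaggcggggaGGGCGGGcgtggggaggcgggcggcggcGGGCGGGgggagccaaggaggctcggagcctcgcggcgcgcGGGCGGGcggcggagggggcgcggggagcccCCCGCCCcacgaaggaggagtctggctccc
The LOXL4 window was 86.4% GC and held 5 GC boxes and 0 CACCC. The IGFL1 window was 52.8% GC and held 1 CACCC, on the opposite strand, and 0 GC boxes. The MPPED1 window was 86.8% GC and held 1 CACCC and 4 GC boxes. LOXL4 and IGFL1, which had the same pattern in HCC95, thus shared neither motif in these windows. CACCC stood in 54.7% and CCCGCCC in 31.5% of all 35116 windows in the table, whose median GC content was 58%. The second MPPED1 start held neither motif, and of the 7 GHR windows 2 held CACCC, with 3 and 2 matches. Such matches describe letters and do not mark binding.

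KLF5 itself was measured at close levels with both constructs. KLF5 had 1314 and 1487 counts in E419Q libraries, 1477 and 1613 in WT libraries, and 518 and 632 in empty-vector libraries. The ratio of E419Q to WT was 1.06 (95% counting interval 1.004 to 1.11). The log2 fold change between them was 0.06 (SE 0.0616, edgeR adjusted p = 0.683), and it was 1.58 for E419Q and 1.52 for WT against the empty vector. In BICR31 it stood at 986, 1008 and 882 units of the deposited signal with siKLF5, against 2682, 2289 and 2620 units with siNC (log2 fold change -1.40, limma adjusted p = 7.27e-09). RSEM, the counting program, gave KLF5 a length of 1539 and 1625 bases with E419Q and 1574 and 1575 bases with WT. With the empty vector the length was 2578 and 2487 bases. Mean TPM, the deposited level per length, was 446 with E419Q, 420 with WT and 88.2 with the empty vector, a wider step than in counts. Counts of KLF5 transcribed from the vector and from the cell's own gene were not told apart. In these bulk samples, fewer cells of a type and less RNA per cell cannot be told apart.

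The 9 members fell into a pair of patterns by their raw counts in HCC95. In SUSD2, MPPED1, SORCS2 and MFAP5 both E419Q libraries lay above both empty-vector libraries, so that E419Q also came with more RNA, though less than WT in 3 of these 4. In LOXL4, IGFL1, GHR, EDAR and GPRC5A they did not, so that the higher level was found with WT alone. Both WT libraries lay above both empty-vector libraries in 9 of 9 members and above both E419Q libraries in 8 of 9, the exception being MPPED1. This follows from the choice of members and supports nothing further. The share of all genes whose HCC95 groups do not overlap was not counted, so these counts have no background. The shares that follow are of called genes, a different measure. Over all 12933 genes tested with edgeR, 10.8% were called higher and 12.1% lower with WT than with the empty vector, 10.4% higher and 10.8% lower with E419Q than with the empty vector, and 4.41% higher and 3.59% lower with E419Q than with WT. All 9 members passed the filter on low counts. LOXL4 and GHR passed only through the WT libraries, where they were chosen to be high, and SUSD2 and MPPED1 also needed them. Ranks given below are therefore not independent of the choice.

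**Figure D1:**
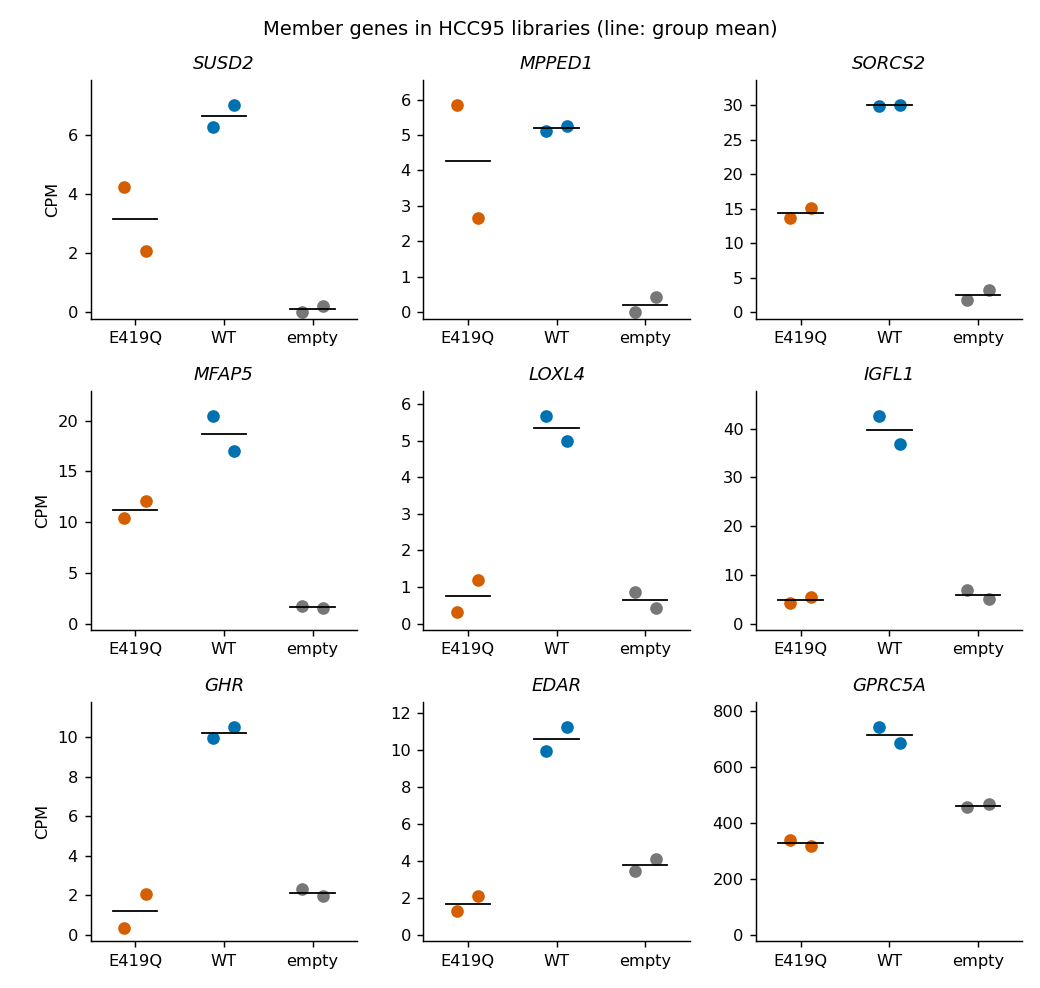
Level of each member in the 6 HCC95 libraries, in CPM (counts scaled to the library's total), with 1 point per library and a line at the group mean. In SUSD2, MPPED1, SORCS2 and MFAP5 the E419Q points sit above the empty-vector points, and in the other members the WT points stand alone at the top.

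IGFL1 and GHR showed the deepest deficits of E419Q among the members. IGFL1 is a small secreted protein of the insulin growth factor-like family. It had 13 and 18 counts in E419Q libraries, 150 and 147 in WT libraries, and 24 and 23 in empty-vector libraries. In CPM, the count scaled to the library's total, these were 4.23 and 5.35 with E419Q, 42.7 and 36.8 with WT, and 6.95 and 4.95 with the empty vector. WT libraries stood apart from the other 4, which overlapped. Over summed counts, E419Q reached 12.2% of WT (95% counting interval 8.12% to 17.7%), 0.830 times the empty vector (0.510 to 1.33), and WT 6.82 times the empty vector (4.997 to 9.48). These intervals, here and below, are exact conditional ones and cover counting error only. By log2 fold change IGFL1 ranked 9 from the lowest of 12933 genes for E419Q against WT and 23 from the highest for WT against the empty vector.

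GHR, the receptor for growth hormone that signals through JAK2 and STAT5, behaved in the same way at lower counts. It had 1 and 7 counts in E419Q libraries, 35 and 42 in WT libraries, and 8 and 9 in empty-vector libraries. E419Q stood at 12.1% of WT (5.05% to 25.1%) and at 0.592 times the empty vector (0.221 to 1.45), while WT was 4.89 times the empty vector (2.86 to 8.81). The difference between E419Q and the empty vector is thus not detectable at this depth. GHR ranked 10 from the lowest for E419Q against WT. The size of its deficit depended on the E419Q library: the fitted log2 fold change of E419Q over WT, -3.03, was -2.30 without E419Q A and -4.86 without E419Q B, and that over the empty vector, -0.78, was -0.05 without E419Q A and -2.60 without E419Q B.

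EDAR, a TNF-receptor family member that drives hair, tooth and gland development through NF-kB, was lower with E419Q than with the empty vector and higher with WT. It had 4 and 7 counts with E419Q, 35 and 45 with WT, and 12 and 19 with the empty vector. E419Q was at 16.0% of WT (7.70% to 30.3%) and at 0.446 times the empty vector (0.202 to 0.912). WT was 2.78 times the empty vector (1.82 to 4.36). The 3 groups did not overlap.

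LOXL4 is a lysyl oxidase-like enzyme that cross-links collagen and elastin. It had 1 and 4 counts with E419Q, 20 and 20 with WT, and 3 and 2 with the empty vector. Outside the WT libraries it lay near the floor of 3 counts, which equals 0.646 to 0.976 CPM across the HCC95 libraries. WT was 8.63 times the empty vector (3.41 to 28.0) and E419Q 14.6% of WT (4.49% to 36.9%), while E419Q over the empty vector was 1.26 (0.289 to 5.47). The direction of that last ratio depended on the library: the log2 fold change fitted by edgeR was 0.28, and it was 0.87 without E419Q A and -0.89 without E419Q B. That of E419Q over WT, -2.75, was -2.16 and -3.92 without these libraries.

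GPRC5A, a retinoic acid-induced orphan receptor of lung epithelium, was by far the most abundant member and so the most precisely counted. It had 1044 and 1069 counts with E419Q, 2613 and 2741 with WT, and 1582 and 2164 with the empty vector. In CPM these were 340 and 318 with E419Q, 743 and 687 with WT, and 458 and 466 with the empty vector. The groups did not overlap on the CPM scale, with E419Q below and WT above the empty vector. E419Q stood at 46.0% of WT (43.7% to 48.4%) and at 0.710 times the empty vector (0.672 to 0.749), and WT at 1.54 times the empty vector (1.48 to 1.61). GPRC5A ranked 1101 from the highest for WT against the empty vector, and 144 from the lowest for E419Q against WT.

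SORCS2, a VPS10 domain sorting receptor that binds neurotrophin precursors together with NGFR, is the best counted of the 4 members that were higher with both KLF5 forms. It had 42 and 51 counts with E419Q, 105 and 120 with WT, and 6 and 15 with the empty vector. WT libraries were nearly equal in CPM, at 29.9 and 30.1, against 13.7 and 15.2 with E419Q and 1.74 and 3.23 with the empty vector. The 3 groups were in clear steps. E419Q was 5.57 times the empty vector (3.44 to 9.42) and 48.2% of WT (37.4% to 61.6%), and WT was 11.6 times the empty vector (7.38 to 19.0).

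MFAP5, a glycoprotein of the elastic microfibrils, showed the same steps in counts and CPM, but its E419Q and WT libraries overlapped in the length-scaled values given below. It had 32.0 and 40.5 expected counts with E419Q, 72.03 and 67.7 with WT, and 5.86 and 7.01 with the empty vector. MFAP5 was the only member with fractional counts, that is, off a whole number by more than 0.02, as when RSEM shares reads between genes, so its level is less certain. E419Q was 7.06 times the empty vector (3.88 to 13.9) and 60.8% of WT (45.2% to 81.3%), and WT was 11.6 times the empty vector (6.58 to 22.4).

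SUSD2 and MPPED1 were at 0 to 2 counts in the empty-vector libraries, and their large folds rest on that near absence. SUSD2, a sushi-domain membrane protein that binds galectin-1, had 13 and 7 counts with E419Q, 22 and 28 with WT, and 0 and 1 with the empty vector. WT over the empty vector was 53.9 (9.24 to 2172) and E419Q over the empty vector 25.2 (4.02 to 1043). E419Q was 46.7% of WT (26.3% to 79.8%). In the edgeR fit the log2 fold change of SUSD2 for WT against the empty vector was 5.40, and it was 4.74 without empty vector A and 7.55 without empty vector B. For E419Q it was 4.30, and 3.63 and 6.44 without these libraries. MPPED1, mainly known from brain, had 18 and 9 counts with E419Q, 18 and 21 with WT, and 0 and 2 with the empty vector. WT over the empty vector was 21.0 (5.44 to 180) and E419Q over the empty vector 17.0 (4.27 to 147). The fitted log2 fold change was 4.21 for WT and 3.89 for E419Q, against 3.48 and 3.16 without empty vector A, and 7.19 and 6.87 without empty vector B. Without empty vector B either gene has 0 counts left with the empty vector, and such fits give no bound on the fold. In MPPED1 the groups with either KLF5 form overlapped: CPM were 5.86 and 2.67 with E419Q and 5.12 and 5.26 with WT, and the ratio of E419Q to WT was 0.807 (0.475 to 1.35). The fitted log2 fold change of E419Q over WT, -0.32, was -0.97 without E419Q A and 0.15 without E419Q B. MPPED1 was therefore higher with both forms and does not bear the description of a gene favoured by WT. It ranked 5 from the highest for WT against the empty vector but 1613 from the lowest for E419Q against WT.

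**Figure D2:**
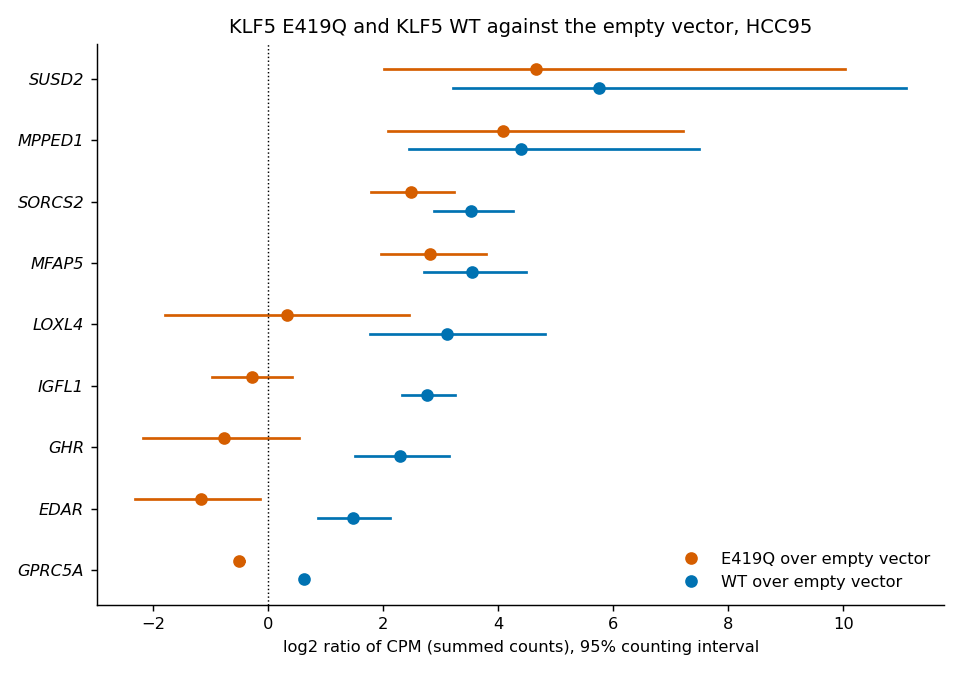
Log2 ratio of summed counts, scaled to library totals, of E419Q and of WT over the empty vector in HCC95, with 95% counting intervals as bars (within the symbols for GPRC5A). Every WT ratio lies above 0, while the E419Q ratios lie above 0 with their intervals in the upper 4 genes, cross 0 in LOXL4, IGFL1 and GHR, and lie below 0 in EDAR and GPRC5A.

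In the plot of ratios to the empty vector, the members are ordered by the fitted WT difference. Members of the first pattern had WT ratios of 11.6 to 53.9, and those of the second 1.54 to 8.63. In the plot of all tested genes, LOXL4, GHR, EDAR and IGFL1 sat at the lower edge of the cloud, between log2 fold changes of -3.05 and -2.63 for E419Q over WT. SUSD2, SORCS2 and GPRC5A lay between -1.14 and -1.07, MFAP5 at -0.74 and MPPED1 at -0.32. The members thus span a wide range of deficits, and the median over all genes was near 0.

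**Figure D3:**
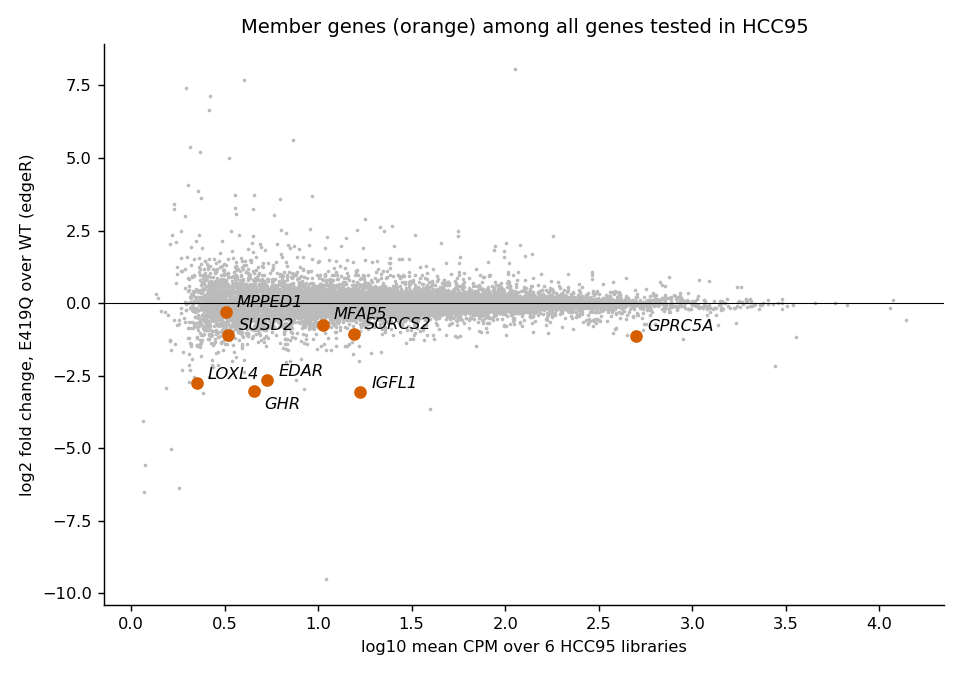
Log2 fold change of E419Q over WT fitted by edgeR (vertical) against log10 mean CPM over the 6 HCC95 libraries (horizontal) for all 12933 genes tested, with the 9 members in orange. IGFL1, GHR, LOXL4 and EDAR lie furthest below 0 and MPPED1 lies within the cloud.

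Per transcript length, GPRC5A was the highest member and LOXL4 and SUSD2 were among the lowest. With WT, TPM, the level per length that the authors deposited, was 245 and 240 for GPRC5A and 103 and 89.6 for IGFL1. MFAP5 followed at 33.3 and 18.3 TPM, and SORCS2 at 10.6 and 14.7. EDAR had 3.49 and 3.98 TPM, MPPED1 2.56 and 4.73, GHR 3.31 and 3.42, SUSD2 2.74 and 3.10, and LOXL4 2.31 and 2.05. The range of MPPED1 took in those of EDAR, GHR and SUSD2, so its place in the order is not set, while the ranges of EDAR, GHR, SUSD2 and LOXL4 did not overlap each other. IGFL1 had only 10.4 and 13.1 TPM with E419Q, below MFAP5 at 15.8 and 18.7, so the order of these members differed between E419Q and WT libraries. MFAP5 was less even over WT libraries in TPM than in counts, and the transcript length that RSEM gave it was 1051 bases in WT A and 1505 bases in WT B. In TPM its WT libraries, at 33.3 and 18.3, thus overlapped its E419Q libraries, at 15.8 and 18.7, which they did not in CPM.

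The members' profiles over the 6 HCC95 libraries were related to different degrees. Pearson's r of log2 CPM ranged from 0.14 to 0.98 over the 36 pairs of members, with a median of 0.65. The genes outside the list most like the members' mean standardised profile, of 11378 with at least 5 CPM on average, were ITM2B (r = 0.997 over 6 libraries), FAM213A (0.997), SH3RF3 (0.995), CDCA7L (0.993) and CYBRD1 (0.992). ITM2B, an integral membrane protein, had 1231 and 1273 CPM with E419Q, 1637 and 1650 with WT, and 1110 and 1099 with the empty vector. SH3RF3, a scaffold protein with SH3 and RING domains, had 13.3 and 14.0 CPM with E419Q, 28.1 and 24.8 with WT, and 10.1 and 10.6 with the empty vector. These genes followed the order of the groups, WT highest and the empty vector lowest. IGFL1, GHR, EDAR and GPRC5A did not, being lowest with E419Q on average, so the mean profile does not stand for them. A high r can go with small steps: CDCA7L had 127 and 128 CPM with E419Q, 135 and 133 with WT, and 120 and 122 with the empty vector. These correlations share 3 group means over 6 libraries and are descriptions.

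The labelled cell type was checked with markers of a squamous epithelial line, all of which were detected in both lines. CDH1 and EPCAM among them are epithelial markers rather than squamous ones, so the squamous sum below is not purely squamous. Over 7 markers (KRT5, KRT6A, KRT14, KRT17, TP63, CDH1 and EPCAM) the summed level was 13442 to 14170 CPM with E419Q, 21876 to 22984 with WT and 18752 to 19788 with the empty vector. KRT5 alone, the main basal keratin, made up most of it, at 10724 and 11308 CPM with E419Q, 16140 and 16736 with WT, and 14491 and 14127 with the empty vector. KRT17 followed that order, but the remaining 5 markers did not. CDH1, the epithelial cadherin, ran the opposite way, at 313 and 303 CPM with E419Q, 198 and 187 with WT, and 240 and 238 with the empty vector, and so did EPCAM, at 365 and 336 with E419Q, 252 and 260 with WT, and 287 and 276 with the empty vector. TP63 and KRT14 were lowest with the empty vector, and KRT6A was highest with it. The 14 markers of fibroblasts, endothelium and immune cells summed to 90.2 to 102 CPM with E419Q, 73.2 to 81.3 with WT and 80.1 to 81.9 with the empty vector, and LUM, KDR, CD3E and CD79A were at 0 in all 6 libraries. THY1 made up most of this sum, at 48.8 and 54.4 CPM with E419Q, 56.0 and 51.8 with WT, and 53.5 and 56.9 with the empty vector. VWF and COL1A1 were highest with E419Q, VWF at 26.0 and 28.2 CPM, while CDH5, at very low counts, was highest with the empty vector. The squamous sum was highest with WT, as all 9 members were on average, and lowest with E419Q, as only IGFL1, GHR, EDAR and GPRC5A were. Its part in their values was not tested. In BICR31 the squamous sum was 101271 to 105676 units with siKLF5 and 135336 to 138669 with siNC, while CDH1 was higher, at 24297 to 26292 units with siKLF5 and 14046 to 14598 with siNC. The markers of other cell types summed to 2260 to 2558 with siKLF5 and 1027 to 1213 with siNC (THY1, CD3E and CD79A at 0). COL1A1, at 1173 to 1333 units with siKLF5 and 518 to 611 with siNC, and COL1A2, at 690 to 867 and 301 to 318, made up most of it. PDGFRB, COL3A1, LUM, DCN and PTPRC, at few reads, had lower means with siKLF5, so the sum does not speak for each cell type. The part of these shifts in the BICR31 values below was not tested either.

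Silencing of KLF5 in BICR31 asked whether lower KLF5 comes with lower levels of the same genes. Of the 9 members, 7 passed the filter of a mean of at least 10 units, where 1 read was worth 7.87 to 9.12 units. With limma, 1 of these 7 was called higher with siKLF5, against 15.3% of all 15710 genes tested, and 0 were called lower, against 10.8%. At an unadjusted limma p under 0.05, 2 were lower (MFAP5 and IGFL1) and 1 was higher (GPRC5A). Of all 15710 genes tested, 5710 had such a p in either direction. MFAP5 passed the filter only through siNC, where its mean was 33.3 units, against 5.52 with siKLF5, so its place in these counts depends on the filter. As a description of the 7, the log2 fold change was below 0 in 3 and above 0 in 4, with a median of 0.13 against 0.04 over all genes tested.

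GPRC5A was the only member called in BICR31, and it rose when KLF5 was silenced. It had 10501, 11767 and 11465 units with siKLF5, against 9100, 8891 and 8247 units with siNC, and the groups did not overlap. The log2 fold change was 0.36 (SE 0.0528, limma adjusted p = 6.45e-05), a fold of 1.29. In limma without a mean-variance trend the call was lost (adjusted p = 0.0534). In HCC95 GPRC5A was also higher with WT than with the empty vector, so it was higher both with less KLF5 in BICR31 and with more WT KLF5 in HCC95. EDAR had 131, 150 and 126 units with siKLF5, against 72.7, 91.2 and 99.4 units with siNC. These groups did not overlap, yet the difference did not pass the test (log2 fold change 0.63, SE 0.312, limma adjusted p = 0.156). Of the 7 members tested, 2 were thus higher with siKLF5 without overlap, against 22.4% of all genes tested, and 1, MFAP5, whose entry rests on the siNC libraries, was lower without overlap, against 17.5%.

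IGFL1 and MFAP5 had lower means with siKLF5, at very low counts. IGFL1 had 49.3, 16.7 and 47.2 units with siKLF5, against 118, 146 and 45.2 units with siNC, so that siNC C lay among the siKLF5 libraries. In counts these were 14 with siKLF5 against 34 with siNC, and the log2 fold change was -1.41 (SE 0.561, limma adjusted p = 0.0760). Without siNC C it was -1.92 and passed (limma adjusted p = 0.0253). MFAP5 had 8.22, 8.33 and 0 units with siKLF5, against 36.4, 27.4 and 36.1 units with siNC. These groups did not overlap, but they were 2 counts against 11, a ratio of 0.163 (95% counting interval 0.0175 to 0.746), and the log2 fold change of -2.95 (SE 1.20) had a limma adjusted p of 0.0838. With a pseudocount of 8 units in place of 1 it was -1.68 and just passed (limma adjusted p = 0.0495).

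The other members showed no detectable response in BICR31, or were not expressed above the floor. SORCS2 had 937, 942 and 1031 units with siKLF5 and 782, 903 and 976 with siNC, overlapping groups (log2 fold change 0.13, limma adjusted p = 0.429, 95% interval of the fold 0.941 to 1.28). SUSD2 had 337, 358 and 220 units with siKLF5 and 209, 228 and 244 with siNC (0.40, limma adjusted p = 0.208, interval 0.977 to 1.77). LOXL4 had 173, 183 and 173 units with siKLF5 and 173, 164 and 199 with siNC (-0.01, limma adjusted p = 0.978). The 95% interval of the LOXL4 fold was 0.720 to 1.36, so changes within that range could not be seen. These intervals of the fold use a normal approximation, not the t distribution of the limma test, and are somewhat too narrow. MPPED1 was at 0 with siKLF5 and at 18.2, 0 and 0 units with siNC, and GHR was listed at 0 in all 6 libraries, so neither was tested. A count of 0 allows up to 23.6 to 27.4 units in these libraries.

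**Figure D4:**
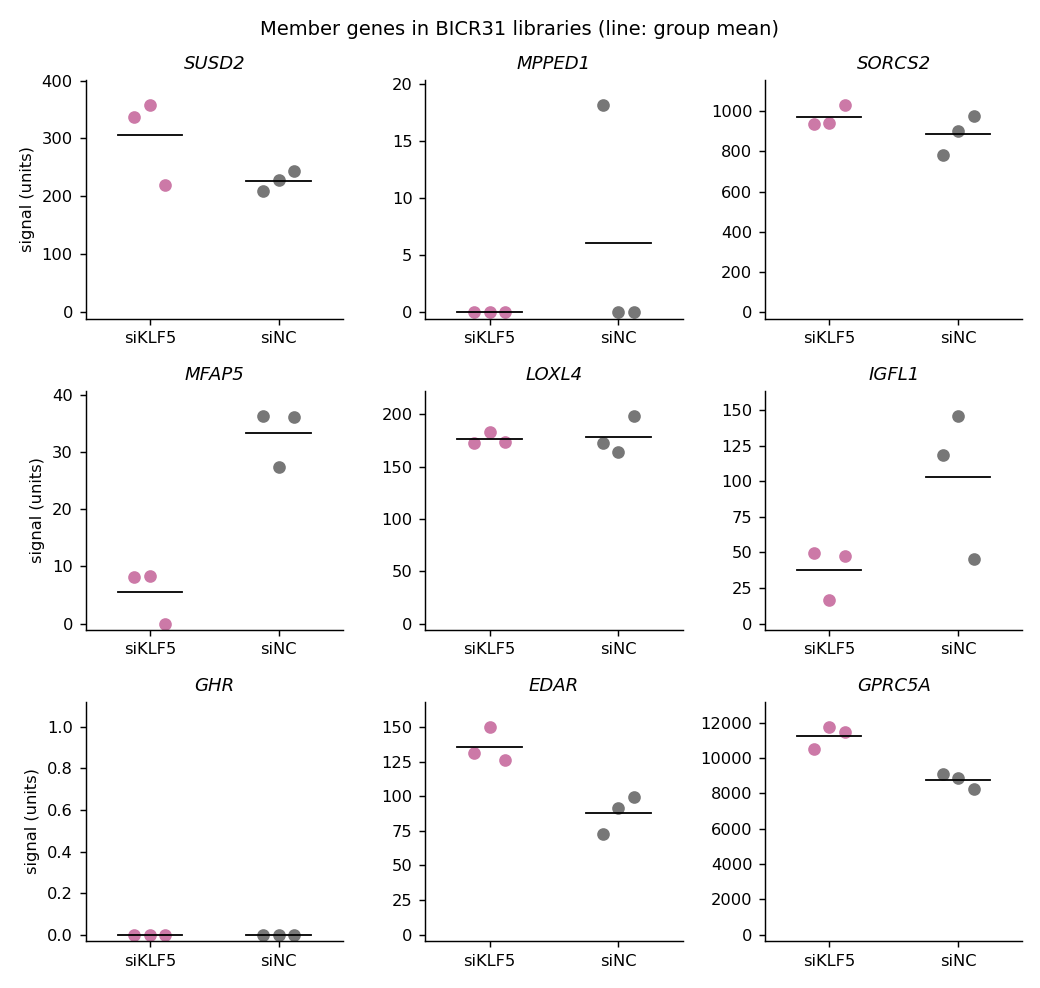
Level of each member in the 6 BICR31 libraries, in units of the deposited normalised signal, with 1 point per library and a line at the group mean. GPRC5A and EDAR points are higher with siKLF5 and MFAP5 points lower, without overlap, and GHR is at 0 in every library.

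The plot of BICR31 levels also shows a difference in starting level between the lines. SORCS2 and SUSD2, with at most 15 counts in HCC95 with the empty vector, stood at means of 887 ± 97.9 and 227 ± 17.4 units with siNC (SD, n = 3), well above that floor. GHR, at 8 and 9 counts in HCC95 with the empty vector, was at 0 throughout BICR31.

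Relatives and pathway partners of the members, 71 genes from published families and pathways, were then examined, 49 of them tested in HCC95 and 58 in BICR31. With edgeR 10 rose and 4 fell with E419Q against WT (20.4% and 8.16% of those tested, against 4.41% and 3.59% of all genes). With E419Q against the empty vector 14 rose and 10 fell (28.6% and 20.4%, against 10.4% and 10.8% of all genes), and with WT against the empty vector 8 rose and 11 fell (16.3% and 22.4%, against 10.8% and 12.1% of all genes). With limma 16 rose and 7 fell with siKLF5 against siNC (27.6% and 12.1%, against 15.3% and 10.8% of all genes), so that the share that fell was near that of all genes. These comparisons in HCC95 share libraries. Genes named below kept their call in every alternative that gave an adjusted p, unless stated, and the lists were drawn up with results of these data known.

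Among lysyl oxidases, which oxidise lysines of collagen and elastin, LOX ran opposite to LOXL4. LOX had 13.7 and 16.6 CPM with E419Q, 2.84 and 4.51 with WT, and 6.66 and 9.04 with the empty vector. E419Q libraries were highest and WT libraries lowest, without overlap. LOX was higher with E419Q than with WT by a log2 fold change of 2.001 (SE 0.305, edgeR adjusted p = 9.31e-05), whereas LOXL4 had a log2 fold change of -2.75 in the same fit. Of 3 lysyl oxidase relatives tested in that contrast LOX alone was called.

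Elastic microfibril genes, the setting in which MFAP5 acts, were called lower with E419Q than with WT in 4 of 10 tested and higher in 0. The median log2 fold change was -0.59, against -0.00299 over all genes. The call of LTBP1, counted among these, was lost in at least 1 alternative. FBN1 (0.43), FBN2 (0.54) and LTBP3 (0.26) had log2 fold changes above 0 and were not called. Against the empty vector, E419Q was called higher for 4 of 10, FBN1 (1.25), FBN2 (0.58), LTBP3 (0.51) and LTBP4 (0.94). It was called lower for 4 of 10, EFEMP1 (-1.09), FBLN1 (-0.35), FBLN2 (-1.59) and LTBP1 (-1.26). Of these calls, those of FBN1, FBN2, FBLN1, FBLN2 and LTBP1 were lost in at least 1 alternative. EFEMP1, a fibulin-family glycoprotein, had 239 and 203 CPM with E419Q, 453 and 438 with WT, and 434 and 484 with the empty vector (E419Q against WT: log2 fold change -1.03, edgeR adjusted p = 1.85e-09). FBLN2, another fibulin, had 3.90 and 2.38 CPM with E419Q, 12.2 and 11.3 with WT, and 11.3 and 7.54 with the empty vector (-1.92, edgeR adjusted p = 0.000536), and FBLN1 was lower by a log2 fold change of -0.58 (edgeR adjusted p = 5.89e-05). In EFEMP1 the WT and empty-vector libraries overlapped, so that the low libraries were those with E419Q, unlike MFAP5, where E419Q lay above the empty vector. LTBP4, a latent TGF-beta binding protein, rose with E419Q (log2 fold change 0.94, edgeR adjusted p = 5.96e-07) and with WT (1.20, edgeR adjusted p = 9.92e-09) against the empty vector. In BICR31 MFAP2, the closest relative of MFAP5, had 600, 675 and 567 units with siKLF5 against 236, 228 and 208 units with siNC (1.45, limma adjusted p = 4.11e-06), while it was at 0 in all 6 HCC95 libraries. LTBP1 (1.49, limma adjusted p = 0.000115) and LTBP3 (0.58, limma adjusted p = 6.91e-06), both latent TGF-beta binding proteins, rose with siKLF5 too.

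Some genes of the growth hormone pathway around GHR fell in both KLF5 arms, but JAK2 and STAT5B were called in neither. JAK2 was higher in both arms than with the empty vector, without overlap. Its log2 fold change was 0.72 with E419Q (edgeR adjusted p = 0.187) and 0.82 with WT (edgeR adjusted p = 0.111). That of STAT5B was -0.11 with E419Q and -0.01 with WT, and STAT5A was at 0 in all 6 HCC95 libraries. SOCS2, a feedback inhibitor induced by growth hormone through STAT5, had 4.55 and 3.57 CPM with E419Q, 3.70 and 2.004 with WT, and 17.9 and 19.2 with the empty vector. It fell with E419Q (log2 fold change -2.22, edgeR adjusted p = 4.90e-06) and with WT (-2.73, edgeR adjusted p = 5.80e-07) against the empty vector. The E419Q and WT libraries overlapped, while GHR itself was high with WT only. IRS1, an insulin and IGF receptor substrate, fell with E419Q (-0.95, edgeR adjusted p = 3.72e-08) and WT (-0.74, edgeR adjusted p = 1.04e-06). STAT3 was higher with E419Q than with WT (0.45, edgeR adjusted p = 0.000213) and fell with WT against the empty vector (-0.36, edgeR adjusted p = 0.000865). In all, 4 of 10 tested fell with E419Q and 5 of 10 with WT against the empty vector, where 10.8% and 12.1% of all genes fell, and 0 rose in either. The calls of PRLR and PTPN11 with E419Q and of PRLR and SOCS3 with WT, counted among these, were lost in at least 1 alternative. Their median log2 fold change was -0.24 with E419Q and -0.36 with WT, against 0.00389 and 0.00342 over all genes.

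Around SORCS2, its partner NGFR was far higher with E419Q than with WT. NGFR, the p75 neurotrophin receptor, had 269 and 271 CPM with E419Q, 83.6 and 83.2 with WT, and 71.5 and 59.6 with the empty vector. Its log2 fold change was 1.68 for E419Q against WT (SE 0.0828, edgeR adjusted p = 3.35e-12), and that for WT against the empty vector was 0.35 (edgeR adjusted p = 0.0123), a call lost in at least 1 alternative. NTRK2, a neurotrophin receptor kinase, had 127 and 139 CPM with E419Q, 66.2 and 66.4 with WT, and 48.6 and 43.1 with the empty vector (0.99, edgeR adjusted p = 1.06e-07). Both were thus highest with E419Q, while SORCS2 was highest with WT. SORL1, another VPS10 domain receptor, was 0.70 higher on the log2 scale with either form than with the empty vector (edgeR adjusted p = 8.44e-08 for E419Q and 8.85e-08 for WT). SORT1, a further one, rose with siKLF5 in BICR31 (0.48, limma adjusted p = 0.000528).

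GPRC5B, a paralog of GPRC5A, was also highest with E419Q. It had 34.8 and 44.0 CPM with E419Q, 15.6 and 17.8 with WT, and 16.5 and 17.2 with the empty vector (E419Q against WT: log2 fold change 1.22, edgeR adjusted p = 1.64e-05). Its WT and empty-vector libraries overlapped, whereas GPRC5A was lowest with E419Q. GPRC5C, the next paralog, rose with E419Q against the empty vector (0.89, edgeR adjusted p = 1.45e-06). In BICR31 GPRC5B rose with siKLF5, as GPRC5A did (0.91, limma adjusted p = 2.05e-05). Of the retinoic acid receptors listed with them, RARG rose with E419Q against the empty vector (0.56, edgeR adjusted p = 8.45e-05), and RARA (-0.64, limma adjusted p = 0.000157) and RARG (-0.46, limma adjusted p = 0.000458) fell with siKLF5.

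**Figure D5:**
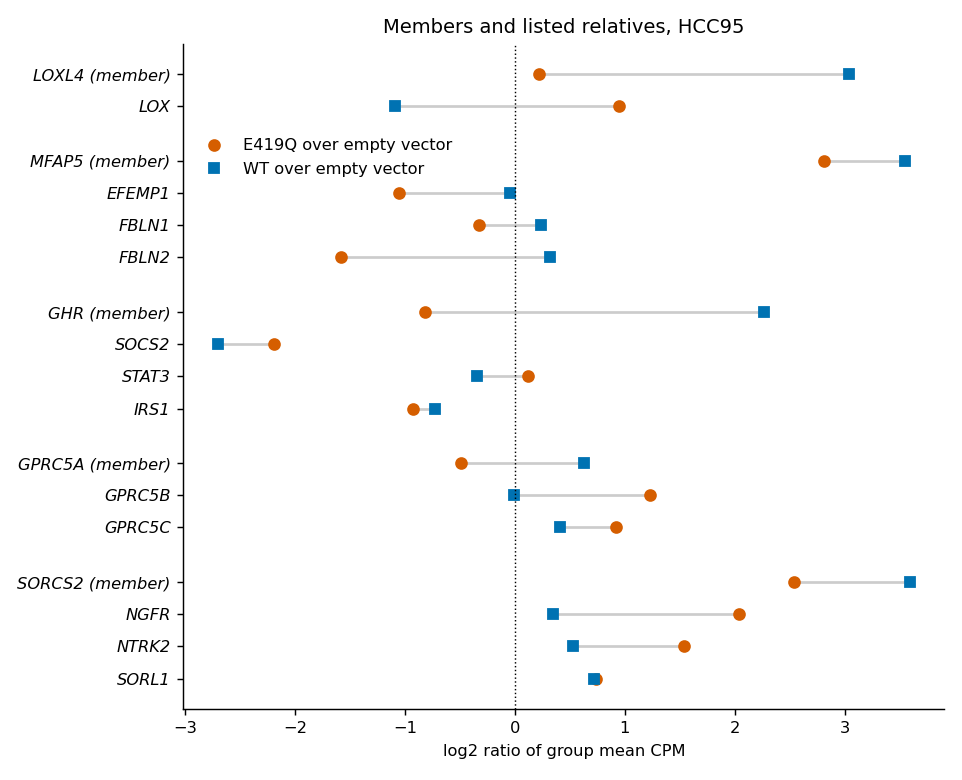
Log2 ratio of group mean CPM over the empty vector in HCC95 for E419Q (circles) and WT (squares), for 5 members and 12 of their listed relatives. The WT squares lie to the right of the E419Q circles in the 5 members, the fibulins and IRS1, and to the left in LOX, STAT3, NGFR, NTRK2, GPRC5B, GPRC5C and SOCS2. In the members this order follows from their choice, and the relatives shown were picked with values known.

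The plot of members and relatives sets these opposite orders side by side. The members' side of each contrast follows from their choice, and the relatives shown were picked with values known. The plot is therefore a description and tests nothing. The remaining lists held fewer changes. Of 10 ectodysplasin pathway genes tested around EDAR, 2 rose and 0 fell with E419Q against WT, neither of them keeping the call in every alternative. In BICR31 NFKBIA, the NF-kB inhibitor (log2 fold change 0.98, limma adjusted p = 2.25e-09), and MAP3K7, a kinase of that pathway (0.47, limma adjusted p = 0.00295), rose with siKLF5. SUSD4, a complement inhibitor with sushi domains, fell with E419Q (-1.16, edgeR adjusted p = 0.000294) and with WT (-1.21, edgeR adjusted p = 0.000143) against the empty vector, opposite to SUSD2. SUSD1 (1.30, limma adjusted p = 3.90e-06) and SUSD6 (0.79, limma adjusted p = 1.21e-06) rose with siKLF5. IGFLR1, the receptor of IGFL1, was the only tested gene of the IGF-like list besides IGFL1. It had 4.88 and 3.57 CPM with E419Q, 4.83 and 4.76 with WT, and 2.03 and 4.74 with the empty vector, and was called in none of the 4 comparisons.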

How the data were processed

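Poly(A) RNA was sequenced from 12 libraries, grouped by the labels. Reads were aligned with STAR and counted with RSEM against the hg19 build, per the submitters' processing notes; these also name edgeR and limma for HCC95 and give no versions. The sources used here do not say whether counting used strand, so reads of overlapping antisense genes were not separated. The HCC95 files hold RSEM expected counts and TPM, both deposited by the authors, per the file headers. The BICR31 files hold a deposited normalised signal, and the sources used here do not give its scaling. Its 75th percentile lay at 983 to 992 units in each library, and 81.7% to 82.7% of its values were whole multiples of 1 read within 0.02 reads, so BICR31 counts are estimates.

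The members and gene lists were chosen with earlier results of these data known. Expected counts were rounded and fitted with edgeR 4.0.16 (quasi-likelihood, TMM, filterByExpr, all 6 HCC95 libraries). BICR31 log2(signal + 1) was tested with limma 3.58.1 with a mean-variance trend, over genes that averaged at least 10 units. These fold changes are on the log2(value + 1) scale, which can understate the change of low genes or, as for MFAP5 in BICR31, overstate it. All tests are two-sided, and p was adjusted by Benjamini-Hochberg over all genes and a threshold of 0.05. Ratios of summed counts have exact 95% counting intervals. Named were the members, KLF5, the called relatives and the 5 genes most like the members' mean profile. The relatives given values were narrowed to those whose calls held in every alternative after values were seen, and IGFLR1 was added then. Alternatives were DESeq2 1.42.0, other scaling, filters and pseudocounts, a replicate block, and leaving out each library. Within groups, chi-square per degree of freedom was 1.24 to 1.83, above sampling noise, so libraries stayed separate in every fit. The ratios do sum counts over the libraries of a group, so their counting intervals leave out this spread and are too narrow. The fits were tested on simulated data. R 4.3.3 and Python 3.11.15 were used.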

Additional observations from a re-analysis of the deposited data

How the results depend on the processing

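GPRC5A in BICR31 was called higher in every alternative except limma without a trend, which left 0 members higher, 2281 genes called in place of 4097, and 13 relatives in place of 23. Members called lower with siKLF5 were 1 with a pseudocount of 8 units (MFAP5) and 0 to 1 when a library was left out, the 1 being IGFL1 without siNC C. LOXL4, with a fitted log2 fold change near 0, ran from -0.0712 to 0.066 when a library was left out, above 0 without siKLF5 A (0.0021) and without siNC C. DESeq2 called 7 relatives for WT against the empty vector, 13 for E419Q against the empty vector and 8 for E419Q against WT, in place of 19, 24 and 14. It gave an adjusted p for 35, 52 and 45 of them. Leaving out a library gave 10 to 17 relatives for WT against the empty vector (10 without WT A, 12 without empty vector A), 14 to 23 for E419Q against the empty vector (14 without E419Q B), 9 to 14 for E419Q against WT (9 without E419Q A or WT B) and 15 to 17 for siKLF5 against siNC (15 without siNC B). The cause was not tested. With the replicate block, 4076 genes and 23 relatives were called in BICR31, and 18, 23 and 14 relatives in HCC95 for WT and for E419Q against the empty vector and for E419Q against WT. Libraries with the same letter did not deviate together (r -0.0761 to 0.0585), so the letters were not taken as pairs. Members under 10 counts in a group (SUSD2, MPPED1, LOXL4 and GHR in HCC95, MFAP5 in BICR31) are limited by depth: leaving out E419Q B moved the log2 fold change of GHR for E419Q against WT to -4.86, and leaving out E419Q A moved that of MPPED1 to -0.97, while without E419Q B it turned to 0.15.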

Other observations

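Listed relatives of the members also included calls that did not hold in every alternative. PRLR, the prolactin receptor and a relative of GHR, had 0.651 and 0.594 CPM with E419Q, 0.853 and 1.002 with WT, and 3.47 and 3.66 with the empty vector (E419Q against the empty vector: log2 fold change -2.49, edgeR adjusted p = 0.00681). Its E419Q values lay below the floor of 3 counts, which equals 0.976 and 0.892 CPM in these libraries. With DESeq2 the call was lost (DESeq2 adjusted p = 0.254). LOXL3, a lysyl oxidase-like enzyme, had 50.4, 69.2 and 80.9 units with siKLF5, against 106, 179 and 167 units with siNC (log2 fold change -1.15, limma adjusted p = 0.0234), while LOX had 370, 308 and 457 units with siKLF5, against 118, 301 and 163 units with siNC (1.05, limma adjusted p = 0.0103). The calls of LOXL3 and LOX were lost in at least 1 alternative, with adjusted p up to 0.0979 for LOXL3 and 0.134 for LOX.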
